A study of Mus musculus with 6 samples.

Results

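The genes that carry Activin and Nodal signals from the receptors to the nucleus were examined in a pSmad2 ChIP-Seq data set. They were 10 of 22342 protein-coding genes of the annotation: the type I receptors Acvr1b, Acvr1c and Tgfbr1, the type II receptors Acvr2a, Acvr2b and Tgfbr2, the receptor-activated Smad2 and Smad3, the common Smad4, and the forkhead factor Foxh1. They were chosen by name, each with its mm9 gene bounds and 20 kb on either side, called its window here. E14 TG2A mouse embryonic stem (ES) cells had been kept for 6 h in 10 μM SB, the type I receptor inhibitor SB 431542, in medium with 20% Knockout Serum Replacement and no leukemia inhibitory factor. They were then given 25 ng/ml Activin, DMSO vehicle at 1 in 5000, or 10 μM SB for 18 h, so that all groups shared the SB pretreatment. Each treatment had 1 ChIP library, made with an antibody to C-terminally phosphorylated Smad2, and 1 input library of unenriched chromatin. Intervals and tests therefore cover counting error in these libraries only, and differences between cultures could not be measured.

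Activin and Nodal ligands bring together a type II and a type I receptor, and the type II receptor activates the kinase of its type I partner. The type I receptor phosphorylates Smad2 and Smad3, which join Smad4 and enter the nucleus. There Smads contact short CAGA sequences weakly and rely on partners such as Foxh1, a forkhead protein of the early embryo, to hold them at their targets. SB blocks the kinases of Acvr1b (ALK4), Tgfbr1 (ALK5) and Acvr1c (ALK7). ES cells make ligands of the pathway themselves, so that vehicle-treated cells signal between the Activin and the SB state. The comparison of the 3 treatments asks at which of these genes pSmad2 tags gathered and whether the tags followed the signal.

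Kept tags, 1 per position and strand, numbered between 7805150 and 10537724 in the ChIP and between 9786787 and 11913742 in the input libraries. The 3 deposited peak lists gave 5094 Activin, 7423 DMSO and 4759 SB positions, which made 12233 merged regions once the bounds of the peaks were rebuilt from the tags. Strong binding was measurable in Activin and DMSO at Lefty1, a secreted Nodal inhibitor. Its region, chr1:182863177-182869757, held 823 Activin, 419 DMSO and 63 SB ChIP tags (inputs 90, 112 and 65 in the same order). By contrast, no region in the windows of the 10 genes held more than 49 ChIP tags of any treatment. These regions were narrower, and the widest of them covered 1777 bp.

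Listed pSmad2 positions lay in the windows of Acvr1b, Tgfbr1, Acvr2a, Acvr2b and Smad3 and made up 6 regions. The other 5 genes, Acvr1c, Tgfbr2, Smad2, Smad4 and Foxh1, had none. Regions at promoters, within 1 kb of a start site of the gene, were found at Tgfbr1 and Acvr2b, regions inside the gene at Acvr2a and Smad3, and regions in the 3′ flank at Acvr1b and Smad3. Over all coding genes, 41.5% had a position of some list within 20 kb, so that 5 of 10 was near the background. By treatment, the Activin list gave 1 of the 10 genes (background 23.3%), the DMSO list 2 (28.8%) and the SB list 3 (24.7%). Only the 3′ region of Smad3 was in more than 1 list, and none was in all 3. The deposited tag numbers of these peaks, from 9 to 34, exceeded those of between 4.37% and 69.4% of the peaks of their own list. The regions were picked as peaks of these same libraries, so a region of 1 list had to be high in that library. The ratios and adjusted p values given below for the regions describe them and are no independent test.

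The sequences around the highest tag pileup of 5 of the regions show which Smad-type motifs lay there. They are from the mm9 genome on the plus strand, up to 300 bases without annotated UTR, and capitals mark CAGA or its reverse complement TCTG.
Tgfbr1 promoter, intron, chr4:47366734-47367013: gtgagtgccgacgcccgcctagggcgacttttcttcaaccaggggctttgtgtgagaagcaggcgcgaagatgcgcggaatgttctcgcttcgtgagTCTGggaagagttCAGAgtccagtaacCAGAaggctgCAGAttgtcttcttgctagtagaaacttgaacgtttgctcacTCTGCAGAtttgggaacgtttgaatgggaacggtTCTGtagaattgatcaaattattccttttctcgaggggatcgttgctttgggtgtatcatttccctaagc
Acvr2b promoter, intron, chr9:119311783-119312082: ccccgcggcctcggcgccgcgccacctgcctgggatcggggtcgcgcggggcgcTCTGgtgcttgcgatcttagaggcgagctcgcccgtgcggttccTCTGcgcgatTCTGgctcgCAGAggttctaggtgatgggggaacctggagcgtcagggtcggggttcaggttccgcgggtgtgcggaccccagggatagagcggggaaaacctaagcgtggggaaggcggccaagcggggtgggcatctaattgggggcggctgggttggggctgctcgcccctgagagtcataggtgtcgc
Acvr1b 3′ flank, intron of Grasp, chr15:101055152-101055451: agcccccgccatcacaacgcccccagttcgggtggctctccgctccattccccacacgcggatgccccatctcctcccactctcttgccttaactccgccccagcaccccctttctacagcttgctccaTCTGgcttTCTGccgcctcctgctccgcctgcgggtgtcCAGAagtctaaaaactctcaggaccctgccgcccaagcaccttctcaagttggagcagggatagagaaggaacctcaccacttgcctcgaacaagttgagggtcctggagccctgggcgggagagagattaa
Smad3 3′ flank, intergenic, chr9:63492993-63493292: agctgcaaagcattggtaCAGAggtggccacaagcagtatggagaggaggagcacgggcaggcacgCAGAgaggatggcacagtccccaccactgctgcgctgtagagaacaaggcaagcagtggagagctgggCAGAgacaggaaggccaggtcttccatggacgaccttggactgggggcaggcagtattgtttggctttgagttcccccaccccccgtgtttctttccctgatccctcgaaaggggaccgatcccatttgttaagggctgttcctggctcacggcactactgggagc
Smad3 intron, chr9:63526667-63526966: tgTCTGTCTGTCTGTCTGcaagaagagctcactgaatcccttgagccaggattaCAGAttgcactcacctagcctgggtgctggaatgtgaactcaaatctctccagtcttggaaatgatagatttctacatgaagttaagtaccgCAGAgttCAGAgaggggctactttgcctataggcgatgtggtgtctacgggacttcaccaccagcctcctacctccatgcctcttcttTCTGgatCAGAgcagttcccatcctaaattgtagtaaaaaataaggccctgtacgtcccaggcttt

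Within 300 bases around the pileup, CAGA on either strand occurred 7 times at Tgfbr1, 4 times at Acvr2b, 3 times at the Acvr1b region, 3 times at the 3′ region of Smad3 and 9 times in the Smad3 intron. It occurred 8 times at the Acvr2a region, which is not printed because it lies in a UTR. The median of all 12233 regions was 4, and 97.4% of them held the motif at least once. The longer CAGAC was present within these 300 bases at 3 of the 6 regions, in 1 copy at Tgfbr1, 2 at Acvr2a and 4 in the Smad3 intron, against 57.1% of all regions. In the Smad3 intron the first run of capitals is a tandem repeat that holds all 4 CAGAC matches, which overlap. This repeat lies before the first base of the rebuilt region, chr9:63526700, and so outside the region itself. AATNNACA, the core of the Foxh1 site, was in none of the 6 windows and in 17.1% of all regions. CAGA matches include those within CAGAC, and a match or its absence describes only these letters.

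Tgfbr1 (chr4:47366094-47427803, plus strand), a type I receptor best known for TGF-β signals, had the only Activin-listed region of the 10 genes. The region covered chr4:47366653-47367059 and peaked in an intron 0.382 kb after the nearest annotated start. It held 10 Activin, 4 DMSO and 3 SB ChIP tags (inputs 1, 3 and 1), inputs being given here and throughout in the order Activin, DMSO and SB. After scaling to library size, Activin tags were 10.3 (95% interval 1.47 to 449, adjusted exact p = 0.0175) times the input by a one-sided exact binomial test over all merged regions. Activin over DMSO was 2.30 (95% interval 0.665 to 10.1, adjusted exact p = 0.355), and Activin over SB 2.47 (95% interval 0.636 to 14.0, adjusted exact p = 0.350). The ChIP tags were most numerous in Activin, but with 3 to 10 tags per ChIP library neither difference passed the two-sided test.

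The window of Acvr1b (chr15:101004556-101043032, plus strand), the main Activin and Nodal type I receptor of ES cells, held a DMSO-listed region at chr15:101054805-101055556. It lay 12.3 kb beyond the 3′ end of Acvr1b and 0.664 kb after the start of the neighbouring gene Grasp, in an intron of that gene, so that it was closer to the promoter of Grasp than to Acvr1b. The region held 7 Activin, 27 DMSO and 19 SB ChIP tags (inputs 11, 6 and 9). DMSO was 5.52 (95% interval 2.23 to 16.3, adjusted exact p = 0.000155) times its input and SB 2.65 (95% interval 1.14 to 6.64, adjusted exact p = 0.0292) times, while Activin was 0.658 (95% interval 0.216 to 1.86) times. Activin was lower than DMSO, at 0.239 (95% interval 0.0879 to 0.563, adjusted exact p = 0.0211), and lower than SB, at 0.273 (95% interval 0.0969 to 0.678, adjusted exact p = 0.0205). The DMSO tags had picked this region, so the comparisons with DMSO are not independent of that choice. SB over DMSO was 0.876 (95% interval 0.460 to 1.63). With the ratio expected at the region's GC content of 64.0%, Activin over SB became 0.417 (adjusted exact p = 0.186) and no longer passed, and with duplicate tags kept SB over input no longer passed (adjusted exact p = 0.0732). Acvr1c (chr2:58119864-58210306, minus strand), the receptor known as ALK7, had no listed position within 50 kb.

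Among the type II receptors, Acvr2b (chr9:119311562-119342619, plus strand) had an SB-listed promoter region at chr9:119311638-119312477, with its pileup 0.314 kb after the nearest start, in an intron. It held 11 Activin, 14 DMSO and 21 SB ChIP tags (inputs 7, 12 and 9). SB ChIP was 2.93 (95% interval 1.28 to 7.26, adjusted exact p = 0.0136) times its input, against 1.43 (95% interval 0.614 to 3.39) times in DMSO and 1.62 (95% interval 0.575 to 4.94) times in Activin. SB over DMSO, at 1.87 (95% interval 0.905 to 3.97, adjusted exact p = 0.233), and Activin over SB, at 0.388 (95% interval 0.169 to 0.842, adjusted exact p = 0.0587), did not pass the test. The region had a GC content of 67.0%, at which windows outside peaks gave 1.56 for SB over DMSO and 0.554 for Activin over SB. Divided by these, the ratios of the region were 1.20 and 0.701.

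Acvr2a (chr2:48669629-48758789, plus strand), the other Activin type II receptor, had an SB-listed region inside the gene at chr2:48755075-48755628, in an annotated UTR 85.7 kb from the start. It held 5 Activin, 10 DMSO and 10 SB ChIP tags (inputs 4, 6 and 2). SB was 6.27 (95% interval 1.34 to 58.8, adjusted exact p = 0.0210) times its input, a value that rests on 2 input tags. None of the treatment ratios passed the test, and Activin over SB was 0.370 (95% interval 0.0993 to 1.19, adjusted exact p = 0.191). Tgfbr2 (chr9:115993415-116084383, minus strand), the TGF-β type II receptor, had no listed position within 50 kb.

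Smad3 (chr9:63494574-63605801, minus strand), which unlike full-length Smad2 binds DNA directly, had the region with the most tags. It covered 1777 bp at chr9:63492648-63494424, with the pileup 1.43 kb beyond the 3′ end of the gene in intergenic sequence, and was in the DMSO and the SB lists. It held 27 Activin, 49 DMSO and 35 SB ChIP tags (inputs 23, 12 and 20). DMSO ChIP was 5.01 (95% interval 2.63 to 10.3, adjusted exact p = 3.04e-07) times its input, SB 2.19 (95% interval 1.23 to 4.01, adjusted exact p = 0.0112) times, and Activin 1.21 (95% interval 0.670 to 2.22) times. Activin was lower than DMSO, at 0.508 (95% interval 0.305 to 0.829, adjusted exact p = 0.0478). Activin over SB was 0.571 (95% interval 0.333 to 0.972, adjusted exact p = 0.109) and SB over DMSO 0.889 (95% interval 0.559 to 1.40), and neither passed. The inputs also stood apart here, with 23 Activin against 12 DMSO tags (unadjusted exact p = 0.0414, adjusted exact p = 1).

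The other Smad3 region, listed for DMSO, lay in an intron at chr9:63526700-63527006, 12.5 kb upstream of the nearest alternative start site. It held 2 Activin, 9 DMSO and 0 SB ChIP tags (inputs 3, 2 and 2). DMSO was 5.52 (95% interval 1.14 to 52.5, adjusted exact p = 0.0299) times its input. With 0 SB tags no ratio could be formed. Taking 3 tags as the limit of a count of 0, and the 9 DMSO tags as exact, SB was at least 2.41-fold lower. This bound leaves out the counting error of the DMSO tags, and SB against DMSO did not pass the two-sided test (adjusted exact p = 0.0555). Activin over DMSO was 0.205 (95% interval 0.0215 to 0.990, adjusted exact p = 0.127). With duplicate tags kept, the DMSO count was 18, beside 2 in Activin and 0 in SB. DMSO then exceeded Activin (adjusted exact p = 0.00404) and SB (adjusted exact p = 0.00147). That test counts copies of 1 fragment as separate tags, and these 18 DMSO tags were 9 distinct ones, so its p values are too small. The region had also been picked for its DMSO tags.

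**Figure D1:**
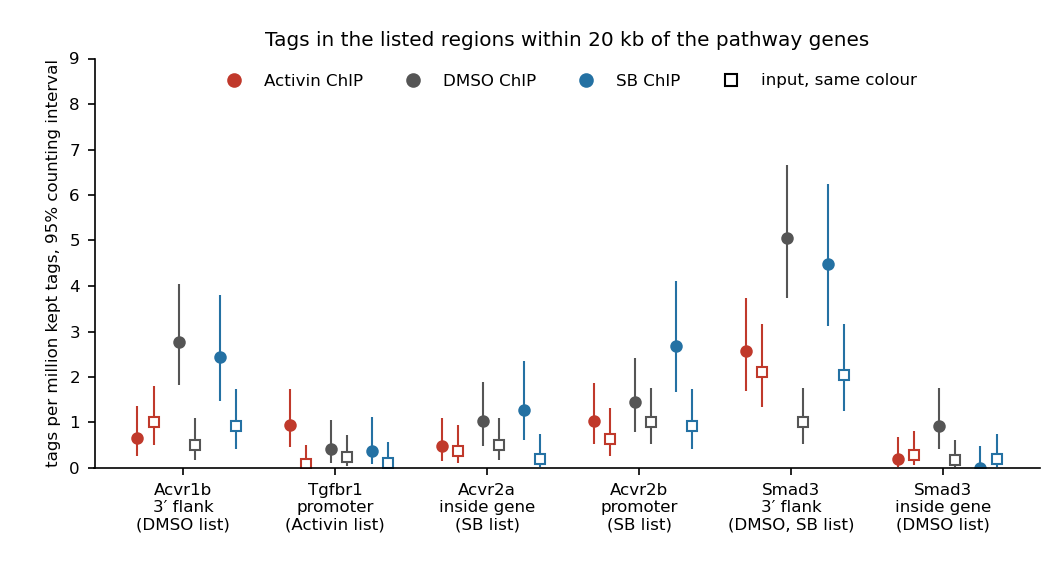
Tags per 1000000 kept tags (vertical axis) in the 6 listed regions of the windows, with filled circles for ChIP, open squares for the input of the same colour and lines for 95% counting intervals. The 3′ region of Smad3 is the highest. Activin ChIP is below DMSO and SB at the regions of Acvr1b, Acvr2a and Acvr2b and at the 3′ region of Smad3. Tgfbr1 is the only region where Activin is the highest of the ChIP libraries.

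Over the 6 regions, ChIP exceeded input at 1 in Activin, 3 in DMSO and 4 in SB (background 39.8%, 56% and 40.2% of all merged regions). Activin and DMSO differed at 2 of the 6 (background 9.56%), both lower in Activin (background 7.14% lower and 2.42% higher). SB and DMSO differed at none (background 8.61%, with 1 of the 6 at an unadjusted p under 0.05). Activin and SB differed at 1 (background 17.7%), lower in Activin (background 12.9%). No region was higher in Activin than in DMSO or SB by the test. The median Activin to DMSO ratio was 0.484 over the 6 regions and 0.800 over all merged regions, and the SB to DMSO medians were 0.911 and 0.917. The regions had been picked as peaks of these same libraries, so a region of a single list had to be high in that library, and the values describe the regions without testing them independently. In 1 kb windows centred on the deposited positions, no region differed between treatments by the test.

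Promoters were counted for all 10 genes whether listed or not, as tags within 1 kb of any start site. Only Tgfbr1 in Activin and Acvr2b in SB stood above input. Tgfbr1 held 29 Activin, 14 DMSO and 17 SB ChIP tags (inputs 10, 25 and 13), and Activin ChIP was 3.00 (95% interval 1.42 to 6.90, adjusted exact p = 0.0415) times its input (background 3.05% of promoters above input in Activin). In DMSO it was 0.687 (95% interval 0.330 to 1.37) times input and in SB 1.64 (95% interval 0.750 to 3.67) times. The Activin input, at 10 tags, was the lowest of the inputs, with an unadjusted exact p of 0.0270 against the DMSO input (adjusted exact p = 0.756). Between the ChIP libraries, Activin over DMSO was 1.91 (95% interval 0.977 to 3.91, adjusted exact p = 0.589) at this promoter and did not pass. Acvr2b held 20 Activin, 32 DMSO and 34 SB ChIP tags (inputs 14, 25 and 19), and SB ChIP was 2.24 (95% interval 1.24 to 4.16, adjusted exact p = 0.0415) times its input (background 7.66% in SB). Ratios to input were not scaled for GC content, which at 66.6% was the highest of the 10 promoters. Windows outside peaks at that GC content gave SB over DMSO at 1.56 in ChIP and 1.28 in input. With duplicate tags kept, both promoters just missed the threshold, at 2.72 (adjusted exact p = 0.0676) for Tgfbr1 and 2.04 (adjusted exact p = 0.0803) for Acvr2b, and within 500 bp of the start sites neither passed.

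In DMSO none of the 10 promoters exceeded input (background 4.76%), and 2 of 10 had an unadjusted p under 0.05. These were Smad2, the factor precipitated here, with 39 Activin, 45 DMSO and 44 SB ChIP tags (inputs 46, 35 and 39) and a DMSO ratio to input of 1.58 (95% interval 0.991 to 2.53, adjusted exact p = 0.257), and Acvr2a, with 12 Activin, 18 DMSO and 11 SB ChIP tags (inputs 13, 10 and 14) and a DMSO ratio of 2.21 (95% interval 0.966 to 5.35, adjusted exact p = 0.281). The promoter of Foxh1 held 38 Activin, 30 DMSO and 24 SB ChIP tags (inputs 27, 36 and 26). Its ratios to input were 1.46 (95% interval 0.865 to 2.48) in Activin, 1.02 (95% interval 0.608 to 1.71) in DMSO and 1.16 (95% interval 0.636 to 2.10) in SB. The intervals of these ratios included 1, and over this window as a whole no enrichment was detectable at this depth. Within it, a 200 bp bin 0.278 kb after the start held 10 Activin, 8 DMSO and 2 SB ChIP tags (inputs 1, 4 and 3). That bin passed no test against input or between treatments (adjusted exact p = 0.116 for Activin over input). The study itself named FoxH1 among feedback genes with graded pSmad2 binding at introns or promoters, citing real-time PCR of ChIP DNA. Those PCR values were not examined here.

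The remaining promoters did not stand above their inputs by the test. Smad3, counted over 4 start sites, held 53 Activin, 48 DMSO and 52 SB ChIP tags (inputs 68, 86 and 67), and ChIP was 0.685 times input in DMSO, 0.806 in Activin and 0.973 in SB. Both listed regions of Smad3 were thus away from its promoters. Tgfbr2 had 9 Activin, 20 DMSO and 9 SB ChIP tags (inputs 17, 19 and 18). Acvr1b had 18 Activin, 20 DMSO and 23 SB ChIP tags (inputs 14, 27 and 24). Acvr1c had 19 Activin, 19 DMSO and 15 SB ChIP tags (inputs 29, 23 and 16). The ratios to input of the last 3 genes ran from 0.547 for Tgfbr2 in Activin to 1.33 for Acvr1b in Activin. The medians over the 10 promoters were 0.915, 1.16 and 1.19 times input for Activin, DMSO and SB, beside 1.03, 1.02 and 1.10 over all promoters.

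**Figure D2:**
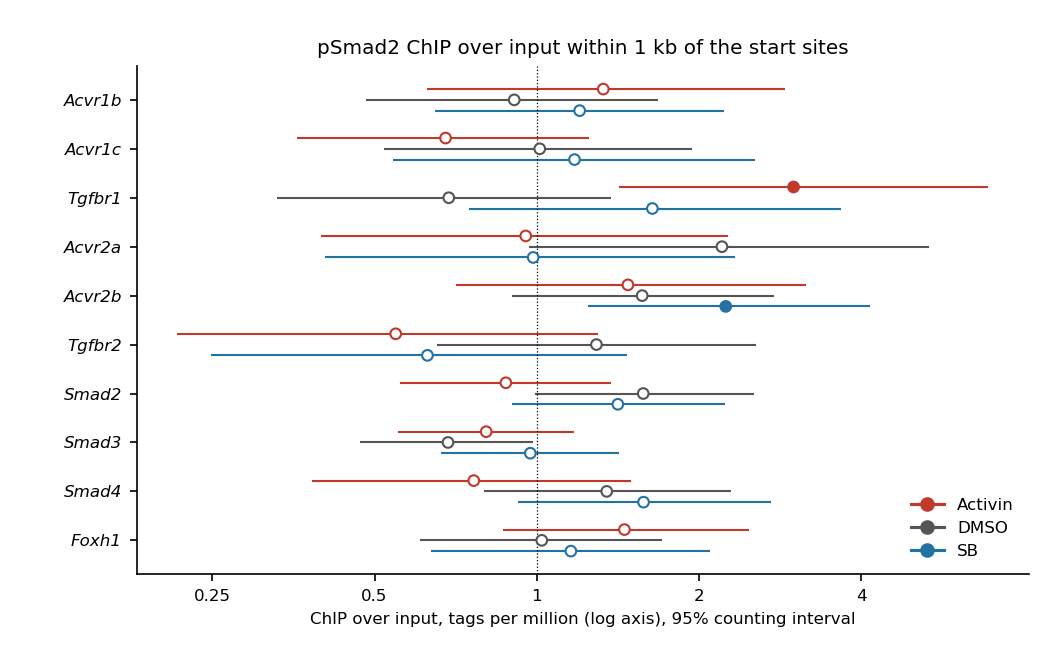
Ratio of ChIP to input tags, each scaled to its library, within 1 kb of the start sites (horizontal log axis) for the 10 genes, with 95% counting intervals as lines and filled circles where the adjusted p was under 0.05. Only Tgfbr1 in Activin and Acvr2b in SB are filled.

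Between treatments, no promoter of the 10 differed for Activin against DMSO (background 0.0551%, with 3 of 10 at an unadjusted p under 0.05) or SB against DMSO (background 0.811%, with 0 of 10). Activin and SB differed at 1 promoter (background 5.28%, 5.17% lower in Activin), that of Smad4, the partner that Activin and BMP signals share. Its promoters held 17 Activin, 33 DMSO and 34 SB ChIP tags (inputs 23, 30 and 27). Activin was lower than SB there, at 0.370 (95% interval 0.194 to 0.682, adjusted exact p = 0.0198), and Activin over DMSO was 0.475 (95% interval 0.248 to 0.877, adjusted exact p = 0.426). Smad4 was not above input in any treatment by the test, with ratios of 1.58 (95% interval 0.925 to 2.72) in SB, 1.35 (95% interval 0.798 to 2.29) in DMSO and 0.764 (95% interval 0.383 to 1.49) in Activin. With the ratio expected at the promoter's GC content of 50.2%, Activin over SB was 0.399 and no longer passed (adjusted exact p = 0.104). Tgfbr2, at 0.415 (95% interval 0.166 to 0.953), and Tgfbr1, given above, were the others with an unadjusted p under 0.05 for Activin against DMSO, and they lay in opposite directions.

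GC content moved with the treatment ratios across the genome. In 500 bp windows outside all peaks, SB over DMSO was 0.903 at 37.5 to 40% GC, 1.11 at 50 to 52.5% and 1.56 at 65 to 67.5%, and Activin over DMSO was 0.995, 1.03 and 0.862 at the same steps. Over the 10 genes, promoter GC ranged from 47.2% at Smad2 to 66.6% at Acvr2b, and the expected SB to DMSO ratio from 1.02 to 1.56. The median SB to DMSO ratio of the 10 promoters was 1.25 before and 0.967 after division by the expected ratio. Over all promoters the medians were 1.18 and 1.04, and the number called for SB against DMSO went from 157 to 7. The inputs moved the same way, less steeply, from 0.940 to 1.28 for SB over DMSO between the first and the last of these steps. What sets the relation to GC was not tested.

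**Figure D3:**
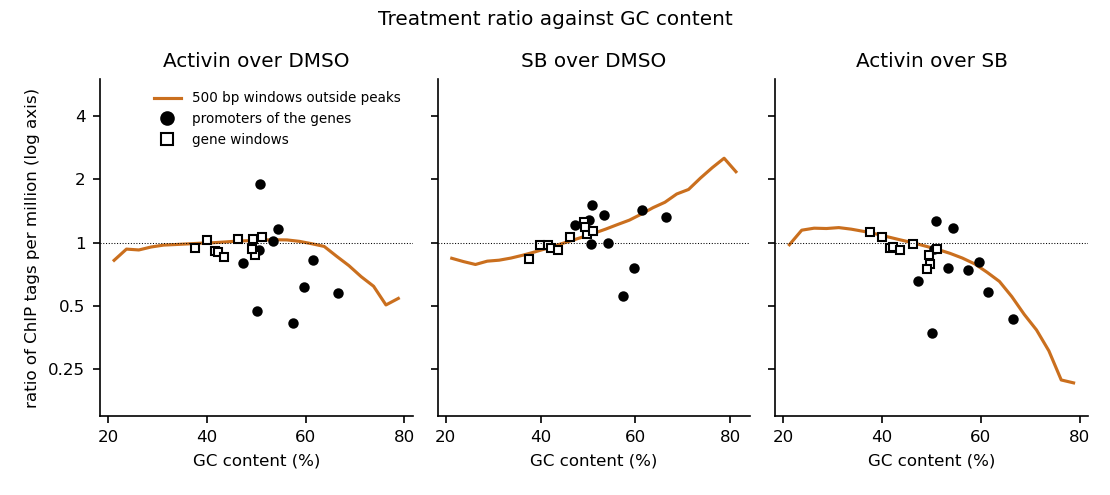
Ratio of scaled ChIP tags between treatments (vertical log axis) against GC content in percent, with a line for 500 bp windows outside peaks, filled circles for the promoters and open squares for the windows of the 10 genes. For SB over DMSO the gene windows follow the rise of the line, while the promoters scatter widely around it.

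Over the whole gene and 20 kb each side, 286 to 1120 ChIP tags were available per gene and library, and smaller differences could be seen. SB exceeded DMSO over Acvr2b and Smad3, and Activin was below SB over Acvr1b, Acvr2b and Smad3. Acvr2b held 585 Activin, 575 DMSO and 580 SB ChIP tags over 71.1 kb, or 0.781, 0.833 and 1.05 tags per kb per 1000000 kept tags. SB over DMSO was 1.26 (95% interval 1.12 to 1.41, adjusted exact p = 0.00409), and Activin over SB 0.747 (95% interval 0.665 to 0.839, adjusted exact p = 2.79e-05). Smad3 held 1120, 994 and 948 tags in the same order over 151 kb. SB over DMSO was 1.19 (95% interval 1.08 to 1.30, adjusted exact p = 0.00522), and Activin over SB 0.875 (95% interval 0.802 to 0.955, adjusted exact p = 0.0201). Acvr1b held 716, 758 and 673 tags over 78.5 kb, and Activin over SB was 0.788 (95% interval 0.708 to 0.877, adjusted exact p = 0.000231). All 3 genes contain listed regions in their windows, and their GC contents, from 49.2% to 49.8%, were among the highest of the 10, below only that of Foxh1 (51.1%).

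These were 2 of 10 genes for SB against DMSO (background 9.17% of all gene windows, 7.73% higher) and 3 of 10 for Activin against SB (background 17.8%, 15.6% lower). None of the 10 differed between Activin and DMSO (background 3%, with 2 of 10 at an unadjusted p under 0.05), where Smad4, at 0.851 (95% interval 0.758 to 0.956, adjusted exact p = 0.108), and Acvr1b, at 0.871 (95% interval 0.785 to 0.966, adjusted exact p = 0.134), came nearest. With duplicate tags kept, both passed. With the tags of all merged regions left out, an alternative added after seeing the data, SB over DMSO was 1.24 at Acvr2b and 1.22 at Smad3, and both passed. Relative to 500 bp windows at the mean GC content of each gene window, the ratios of Acvr2b and Smad3 were 1.18 (adjusted exact p = 0.217) and 1.12 (adjusted exact p = 0.317), and neither passed. On that scale Activin over SB was 0.818 at Acvr1b (adjusted exact p = 0.00474) and 0.775 at Acvr2b (adjusted exact p = 0.000783), which passed, and 0.908 at Smad3 (adjusted exact p = 0.152), which did not. The scale takes 1 mean GC value per gene window and does not follow GC-rich stretches within it.

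The inputs varied over the same windows in the same direction. SB over DMSO input was 1.19 at Acvr2b (unadjusted exact p = 0.00253, adjusted exact p = 0.131) and 1.10 at Smad3 (unadjusted exact p = 0.0206, adjusted exact p = 0.305). Activin over SB input was 0.870 at Acvr1b (unadjusted exact p = 0.00858, adjusted exact p = 0.124) and 0.846 at Acvr2b (unadjusted exact p = 0.00410, adjusted exact p = 0.0851). Windows of 500 bp outside peaks, in the GC step of these 2 gene windows, gave 0.964 for the same inputs. The part of the inputs in the ChIP differences was not tested. None of the 10 genes differed between inputs by the adjusted test, in its window, at its promoter or in its listed regions. The background for Activin against DMSO, SB against DMSO and Activin against SB inputs was 0%, 0.855% and 2.69% of gene windows, 0%, 0.00495% and 0.144% of promoters, and 0.00817%, 0.00817% and 0.0899% of merged regions.

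**Figure D4:**
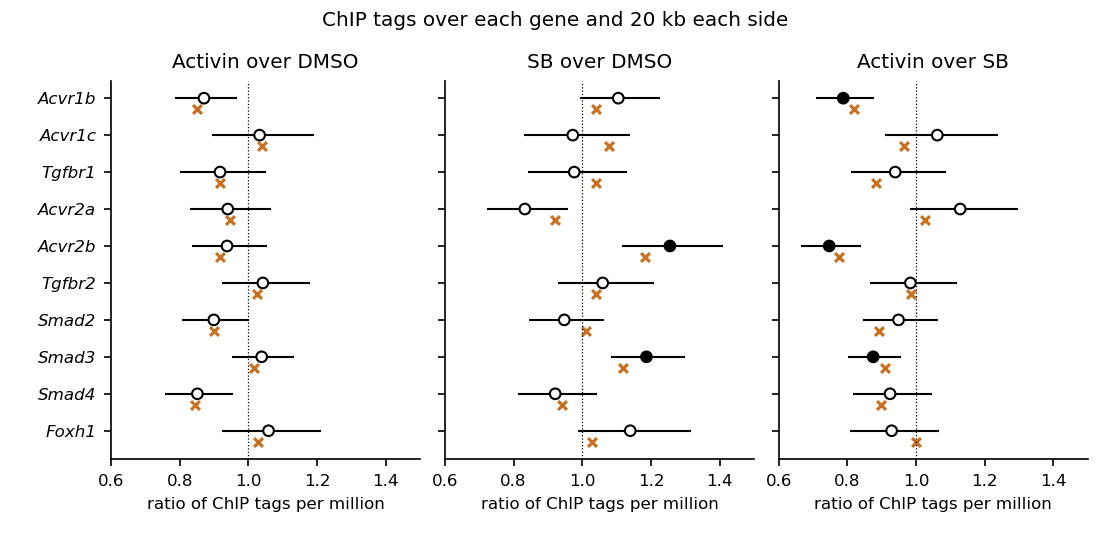
Ratios of scaled ChIP tags between treatments (horizontal axes) over each gene with 20 kb each side, with 95% counting intervals as lines and filled circles where the adjusted p was under 0.05. Orange crosses give the ratio divided by that of 500 bp windows at the mean GC content of the gene window. Acvr2b and Smad3 are filled for SB over DMSO, and Acvr1b, Acvr2b and Smad3 for Activin over SB.

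In 200 bp bins no single position of the 10 genes passed the test. Bins with at least 10 tags in ChIP and input together numbered 46, 48 and 36 over the 10 windows in Activin, DMSO and SB, and none exceeded its input (background 2.57%, 3.2% and 4.28%), with 2, 5 and 5 at an unadjusted p under 0.05. Between treatments, 0 of 46, 41 and 43 bins differed for Activin against DMSO, SB against DMSO and Activin against SB (background 0.00385%, 0.109% and 0.934%), with 3, 1 and 1 unadjusted. The smallest adjusted exact p against input, 0.0848, belonged to DMSO in the 3′ region of Smad3, where a bin held 11 ChIP and 2 input tags. At Acvr1b, the bin with the smallest p in SB held 11 ChIP and 3 input tags and lay in the region at Grasp. At Foxh1 (chr15:76498714-76500378, minus strand), a bin 0.278 kb after the start held 10 ChIP tags and 1 input tag in Activin (adjusted exact p = 0.116). The same bin held 8 ChIP and 4 input tags in DMSO, and 2 ChIP and 3 input tags in SB. The most ChIP tags of any bin in the 10 windows were 13, in Activin, 8.88 kb downstream of the Foxh1 start and beyond that gene, with 3 input tags. The window of Foxh1 also holds 3 other coding genes, Cyhr1, Kifc2 and Ppp1r16a. Called bins of the whole genome held a median of 18 Activin, 16 DMSO and 15 SB ChIP tags.

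**Figure D5:**
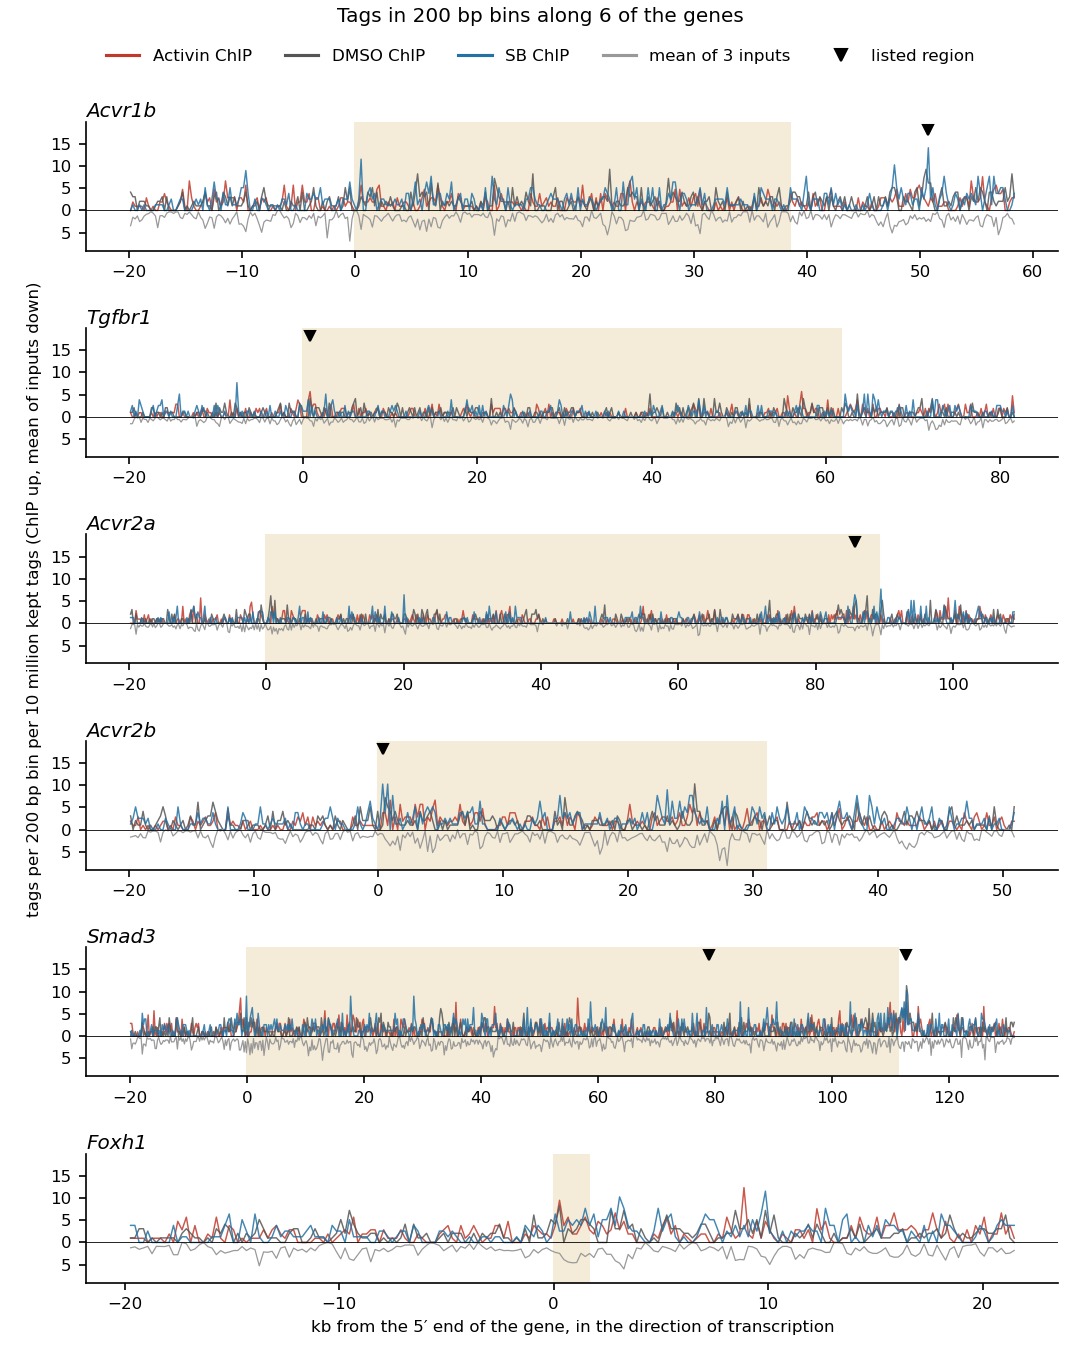
ChIP tags (up) and the mean of the 3 inputs (down) per 200 bp bin per 10000000 kept tags, against the distance in kb from the 5′ end of the gene, for the 5 genes with listed regions and Foxh1, with the gene shaded and listed regions marked by triangles. The profiles stay below 15 along all 6 windows, and the highest point, in SB, lies at the listed region in the 3′ flank of Acvr1b.

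Around Foxh1, listed regions began just outside the window. The nearest, from the DMSO list, lay 23.0 kb beyond the 3′ end at chr15:76475521-76475911 and held 3 Activin, 13 DMSO and 3 SB ChIP tags (inputs 4, 5 and 6), with Activin over DMSO at 0.213 (95% interval 0.0389 to 0.774, adjusted exact p = 0.0706). On the other side, 40.9 kb upstream and at the start of Lrrc14, an SB-listed region held 11 Activin, 24 DMSO and 28 SB ChIP tags (inputs 16, 7 and 8). Activin was lower than SB there, at 0.291 (95% interval 0.131 to 0.603, adjusted exact p = 0.00511). The region with the most tags within 50 kb of any of the 10 genes lay 45.5 kb upstream of Foxh1, in Lrrc14 and the overlapping Lrrc24, and was in the Activin and DMSO lists. It held 76 Activin, 61 DMSO and 56 SB ChIP tags (inputs 31, 35 and 40). Activin was 2.53 (95% interval 1.65 to 3.98, adjusted exact p = 5.4e-05) times its input, and Activin over SB was 1.01 (95% interval 0.702 to 1.45). These regions lie at other genes, and no value here ties them to Foxh1. With 50 kb on each side, 7 of the 10 genes had a listed position (background 54.6%), the added ones being Foxh1 and Smad4. By list these were 2 genes for Activin (34.1%), 4 for DMSO (40.4%) and 5 for SB (35%).

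Smad2 (chr18:76401234-76465385, plus strand) and Smad4 (chr18:73798663-73863434, minus strand) had neither a listed position in their windows nor a promoter above input. Over the whole window, ChIP exceeded input at 2 of the 10 genes in Activin, 3 in DMSO and 6 in SB, by a one-sided test added after seeing the data (background 19.2%, 25.2% and 25.8% of all gene windows). Smad2 exceeded input in each treatment, at 1.17 (95% interval 1.05 to 1.31, adjusted exact p = 0.0161) in Activin, 1.30 (95% interval 1.16 to 1.44, adjusted exact p = 1.07e-05) in DMSO and 1.15 (95% interval 1.02 to 1.29, adjusted exact p = 0.0496) in SB, which was higher than at 77.7%, 84.5% and 67.4% of all gene windows. Smad4 exceeded it in DMSO, at 1.24 (95% interval 1.11 to 1.39, adjusted exact p = 0.000691), and SB, at 1.16 (95% interval 1.02 to 1.32, adjusted exact p = 0.0449), and was at 1.12 (95% interval 0.992 to 1.26, adjusted exact p = 0.141) in Activin.

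Among the receptors, the window of Acvr2a exceeded input in Activin, at 1.19 (95% interval 1.05 to 1.36, adjusted exact p = 0.0208), and in DMSO, at 1.28 (95% interval 1.13 to 1.45, adjusted exact p = 0.000371), and was at 1.18 (95% interval 1.02 to 1.37, adjusted exact p = 0.0580) in SB. In SB the test was also passed by Tgfbr1, at 1.30 (95% interval 1.11 to 1.52, adjusted exact p = 0.00265), Acvr2b, at 1.18 (95% interval 1.05 to 1.33, adjusted exact p = 0.0102), Acvr1b, at 1.17 (95% interval 1.05 to 1.30, adjusted exact p = 0.0105), and Foxh1, at 1.21 (95% interval 1.05 to 1.40, adjusted exact p = 0.0195). The SB ratio of Tgfbr1 was higher than that of 83.6% of all gene windows, and those of the other 3 lay between the 70.2 and 75.6 percentiles. With duplicate tags kept, 2 of the 6 genes passed in SB, Tgfbr1 and Foxh1, and 1 of 2 in Activin, Smad2. Acvr1c, at 0.991 to 1.05, and Smad3, at 0.947 to 1.02, passed in no treatment, and Tgfbr2 lay lowest of the 10, at 0.798, 0.797 and 0.860. Over the 10 genes the Activin median was 1.05, the DMSO median 1.10 and the SB median 1.16, beside 1.02, 1.03 and 1.04 over all genes.

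Other genes of the pathway gave a scale for these values. Their lists were drawn up with earlier results of these data known, and the first holds targets the study named, among them Lefty1, Lefty2 and Smad7. The contrast with the 10 genes is therefore a description. Of 22 ligands, coreceptors and inhibitors, 18 had a listed region within 20 kb (background 41.5% of all coding genes), with 72 regions in all. The receptors, Smads and Foxh1 had 6 regions at 5 of 10 genes. Activin was higher than SB at 20 of the 72 regions (background 4.85%) and lower at 3 (12.9%), and these lay at 12 of the 22 genes. Activin was higher than DMSO at 7 (2.42%), at 5 genes, and lower at none (7.14%). SB was lower than DMSO at 10 (background 3.38%) and higher at 4 (5.23%), at 9 genes. Regions of 1 gene are not independent of each other. At Lefty1, Activin over SB was 9.68 (95% interval 7.48 to 12.7). Ski, a corepressor of Smads in the same list, had a region with 274 Activin, 187 DMSO and 43 SB tags and Activin over SB at 4.72 (95% interval 3.41 to 6.67). Of 11 genes of the BMP arm, which signals through other Smads, 7 had a region (background 41.5%), and none of their 14 regions differed between treatments. The background was 9.56% for Activin against DMSO, 8.61% for SB against DMSO and 17.7% for Activin against SB. Of 12 cofactors of receptors and Smads, 7 had a region (background 41.5%). Of their 18 regions, 3 were lower in Activin than in DMSO (background 7.14%), 1 was higher (4.85%) and 1 lower (12.9%) in Activin than in SB. Both of the last were in the window of Ep300, the acetyltransferase p300. The lower one held 26 Activin, 51 DMSO and 53 SB tags, with Activin over SB at 0.363 (adjusted exact p = 0.000638).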

How the data were processed

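The deposited files were lists of aligned 35 bp tags for 3 ChIP and 3 input libraries, and 1 peak list per treatment with each peak's position and its tag count as the authors wrote them. Per the study's methods, the authors called peaks with MACS at a p cutoff of 1e-05 with tags extended to 200 bp, each ChIP library against the input of its treatment. The aligner and the MACS version were not given in the sources used. The build was mm9, and the mm9 sequence and GENCODE annotation were used.

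Tags were kept once per position and strand, because the libraries had been PCR amplified and 19.9 to 24.6% of ChIP tags, but 5.64 to 6.94% of input tags, shared a position. Each tag was moved 100 bp to the middle of its fragment, and counts were scaled by the kept tags of the library. The lists give no peak bounds, so peaks were rebuilt as clusters of tags, and peaks sharing at least 1 bp were merged. Counts in merged regions, promoters, gene windows and 200 bp bins were compared by exact binomial tests, one-sided for ChIP over input and two-sided between treatments. Benjamini-Hochberg adjustment covered all features of a comparison, at a threshold of 0.05, and promoters and bins needed at least 10 tags in both libraries together. Ratio intervals are two-sided Clopper-Pearson intervals and cover counting error only. Python 3.11.15 with scipy 1.17.1 and pandas 2.3.3 was used.

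All 10 genes were described whatever their result. Of each other list, up to 4 genes were named, those with the smallest adjusted p between treatments, and fewer are given here. The genes and lists were chosen with earlier results of these data known. On simulated data, Activin against DMSO recovered 22% of 2-fold and 98% of 4-fold changes over 19723 promoters, 14% and 72% over 12233 merged regions, and 84% of 1.5-fold changes over 22342 gene windows. The alternatives concerned duplicate tags, scaling, GC content, the threshold, peak bounds and size, flanks, promoter width, bin position and the tag minimum.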

Additional observations from a re-analysis of the deposited data

How the results depend on the processing

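With 1 library per condition no library could be left out. In simulated data for Activin against DMSO, 2% of 1.5-fold changes were recovered in merged regions and 6% in promoters. No paired analysis was possible because each group held 1 library. Of the counts over genes, 110 recomputed values stayed within 1.5 times and 43 moved, and of the values of single genes 406 kept direction and call, 20 changed direction, 8 gained and 13 lost a call. The causes were not tested.

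At an adjusted p under 0.001, regions above input fell from 1 to 0 in Activin and from 4 to 0 in SB, regions differing from 2 to 0 for Activin against DMSO and 1 to 0 for Activin against SB, promoters above input from 1 to 0 in Activin and in SB, promoters differing between Activin and SB from 1 to 0, gene windows differing between SB and DMSO from 2 to 0, and gene windows above input from 2 to 0 in Activin and 6 to 0 in SB. In 1 kb windows around deposited positions, regions above input in SB were 2 in place of 4, and 0 differed for Activin against DMSO and for Activin against SB. With peaks of at least 13 listed tags, 1 region differed for Activin against DMSO and 2 for Activin against SB. With 10 kb flanks, 1 gene had a DMSO position, 1 region differed for Activin against DMSO and 0 for Activin against SB. With 50 kb flanks, 2, 4 and 5 genes had an Activin, DMSO and SB position, 2, 7 and 7 of 11 regions exceeded input in the same order, and 2 differed for Activin against SB. Within 500 bp of start sites, 0 promoters exceeded input in Activin and 0 in SB. With gene bounds alone, 1 gene differed between Activin and SB, and 1 exceeded input in Activin and 3 in SB.

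With duplicate tags kept, 0 promoters exceeded input in Activin and 0 in SB, 1 region differed for SB against DMSO, 2 bins exceeded input in DMSO, 1 bin differed for Activin against DMSO and 2 for Activin against SB, and 2 gene windows for Activin against DMSO, and 1 gene window exceeded input in Activin and 2 in SB. With ratios expected at equal GC content, 0 regions and 0 promoters differed for Activin against SB, 1 gene window for Activin against DMSO and 0 for SB against DMSO.

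Changes of direction concerned ratios that had passed no test. With duplicates kept these were Activin over input at Acvr2a (0.878 in its region, 1.13 at its promoter), SB over input at the Smad3 promoter (1.03), SB over DMSO at the Acvr1c promoter (1.04), and Activin over SB at the Acvr2a promoter (1.11) and over the Smad2 (1.01) and Tgfbr2 (1.03) windows, Activin over input over the Acvr1c window (0.975) and SB over input over the Smad3 window (0.995). Scaled by tags outside the regions, SB over input at the Acvr2a promoter was 1.01, and DMSO over input over the Acvr1c window 1.01, as also with the tags of the regions left out (1.01). At equal GC content, promoter ratios became 0.986 for Smad3 (Activin over DMSO), 0.849 for Acvr2b (SB over DMSO), 1.02 for Acvr2a and 1.01 for Acvr1c (Activin over SB), and window ratios 1.01 for Smad2, 1.08 for Acvr1c and 1.04 for Tgfbr1 (SB over DMSO) and 0.965 for Acvr1c (Activin over SB).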
